A study of Arabidopsis thaliana with 20 samples.

Results

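The chloroplast of Arabidopsis thaliana keeps a small genome of its own, and 69 of its genes were read out on these arrays. Members were the probe sets (groups of short probes that together read 1 transcript) paired with a single gene on the plastid genome in RefSeq. That gave 69 of 22746 probe sets, each for a different gene. RefSeq lists 78 plastid protein-coding gene symbols. A further 8 probe sets were paired with both copies of a duplicated plastid gene and were not counted as members. The members fall into 10 groups by product: photosystem I with its assembly factors (7), photosystem II (15), the cytochrome b6f complex with a haem attachment factor (7), ATP synthase (6), the NAD(P)H dehydrogenase-like complex or NDH (10), the Rubisco large subunit (1), the small (8) and large (7) ribosomal subunits, RNA polymerase (4), and proteins of metabolism, RNA splicing and proteolysis (4).

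The plastid genome encodes core subunits of the photosynthetic complexes, while the nucleus encodes their antenna proteins and many other subunits. A bacterial-type RNA polymerase, whose core the plastid encodes itself and whose sigma factors come from the nucleus, transcribes most photosynthesis genes. Phage-type polymerases encoded in the nucleus transcribe others, among them the genes for the bacterial-type polymerase. Many plastid genes are read as long transcripts over several neighbours, which are then cut, edited and protected at their ends by nuclear-encoded RNA-binding proteins. Cycloheximide (CHX) stops translation on cytosolic ribosomes and not on plastid ribosomes. Plastid messages mostly lack a stable poly(A) tail, and standard Affymetrix labelling primes from poly(A), so the signal of a plastid probe set need not follow the amount of its RNA in full.

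Total RNA came from whole 10-day-old seedlings of 2 homozygous single-insertion lines, raised on MS agar under 16 h days at 23 °C. The VND7 line carries 35S:VND7-VP16-GR (also spelled VND-VP16-GR in the labels): VND7, a NAC-family regulator of xylem vessel formation, joined to the VP16 activation domain and the steroid-binding part of the glucocorticoid receptor. The empty-vector line carries 35S:VP16-GR:NOS, without VND7. The 35S promoter drives both transgenes in most tissues. Seedlings of all 4 groups were kept in CHX for 2 h and then for 4 h in CHX, with dexamethasone (DEX), which lets such a receptor fusion enter the nucleus, or without it. The treatment protocol gives 10 µM for each compound, while other label fields give 10 mM. Each group had 5 arrays, numbered as replicates 1 to 5 in the labels, and no label says whether these were separate cultures, so p-values describe the spread among these arrays alone, and part of it may be technical.

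Printed signals are not divided by the array median, whereas counts of groups that do not overlap use the values relative to it. Signals are MAS5 signals, recovered from the deposited log values, and differences are on a log2 scale relative to each array's median, tested with limma and adjusted over all 22746 probe sets (Benjamini-Hochberg, threshold 0.05). The array medians lay between 159.7 and 186 signal units and the brightest probe set of an array between 23445 and 32426. Within groups, the correlation of arrays over probe sets was 0.933 or higher, with 0.94 as the median. Markers of green tissue were bright on every array, LHCB4.1 at 10600 or more and RCA at 14970 or more. The table that names probe sets covers only a share of them, and of 12 listed root markers 2 could be matched to a probe set through it, EXPA7 (lowest 3) and EXPA18 (lowest 32.8). The array labelled VND7 line, DEX and CHX, replicate 1 stood apart from the other replicate-1 arrays in its plastid genes, as described below. A signal depends on the probes, so signals of different genes are not set against each other.

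No plastid gene passed the test for a DEX response in the VND7 line without the replicate number in the fit, and 1 of 69 (rpl14) passed with it as a block. The members' differences ran from -0.24 (psbN, needed to assemble photosystem II) to 0.51 (rpl14, a large-subunit ribosomal protein), with a median of 0.10 against -0.02 over all probe sets. Of the 69 members 56 had a positive difference and 0 were called without the block, where 0.453% of all probe sets were called higher and 0% lower. At an unadjusted p under 0.05 the members numbered 0 and all probe sets 782 (3.44%). With the block they numbered 5 and 1788 (7.86%). The median standard error of a member was 0.23 log2, and 0.12 with the block. All 69 differences were smaller than 1.5-fold, and in 0 members did the DEX arrays and the CHX arrays separate without overlap (0.923% of all probe sets separated upwards and 0.171% downwards). In whole seedlings, a change in the number of plastid-bearing cells and a change in plastid RNA per cell cannot be told apart.

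By product, the median difference in the VND7 line was largest for rbcL alone (0.25), then for the large ribosomal subunit (0.19), RNA polymerase (0.18), the cytochrome b6f group (0.16), the metabolic group (0.15), photosystem I (0.14) and the small ribosomal subunit (0.11). It was 0.06 for photosystem II, 0.03 for ATP synthase and 0.03 for NDH. Without the block none of these groups had a called member, and with it the large ribosomal subunit had 1 (rpl14).

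The members with the smallest p in the VND7 line were rpoA and petL. The rpoA gene encodes the alpha subunit of the plastid RNA polymerase. Its signals in the VND7 line were 7577, 5995, 3616, 6952 and 6967 under CHX and 6571, 6839.9, 7692, 7992 and 8192 with DEX, in the order of replicates 1 to 5. The CHX group holds 1 low array, replicate 3, and the groups overlap. The difference was 0.28 ± 0.17 (SE, n = 5 arrays per group, unadjusted p = 0.109, limma's adjusted p = 1). In the empty-vector line rpoA read 7989.8, 6412, 6272, 8852 and 6214 under CHX and 7457, 6348, 5197, 9036 and 7317 with DEX, a difference of -0.03 ± 0.17.

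For petL, a small subunit of the cytochrome b6f complex, the VND7 line gave 2526, 958, 831, 1603 and 1063 under CHX and 1572, 3148, 1918, 1328 and 1313 with DEX. Replicate 2 with DEX was the highest of all 20 arrays, and replicates 1 and 4 went the other way. The difference was 0.43 ± 0.30 (adjusted p = 1, limma). The empty-vector line gave 2255, 1188, 1095, 1141 and 1405 under CHX and 2369, 1467, 1482, 1291 and 924 with DEX, a difference of 0.07 ± 0.30.

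**Figure D1:**
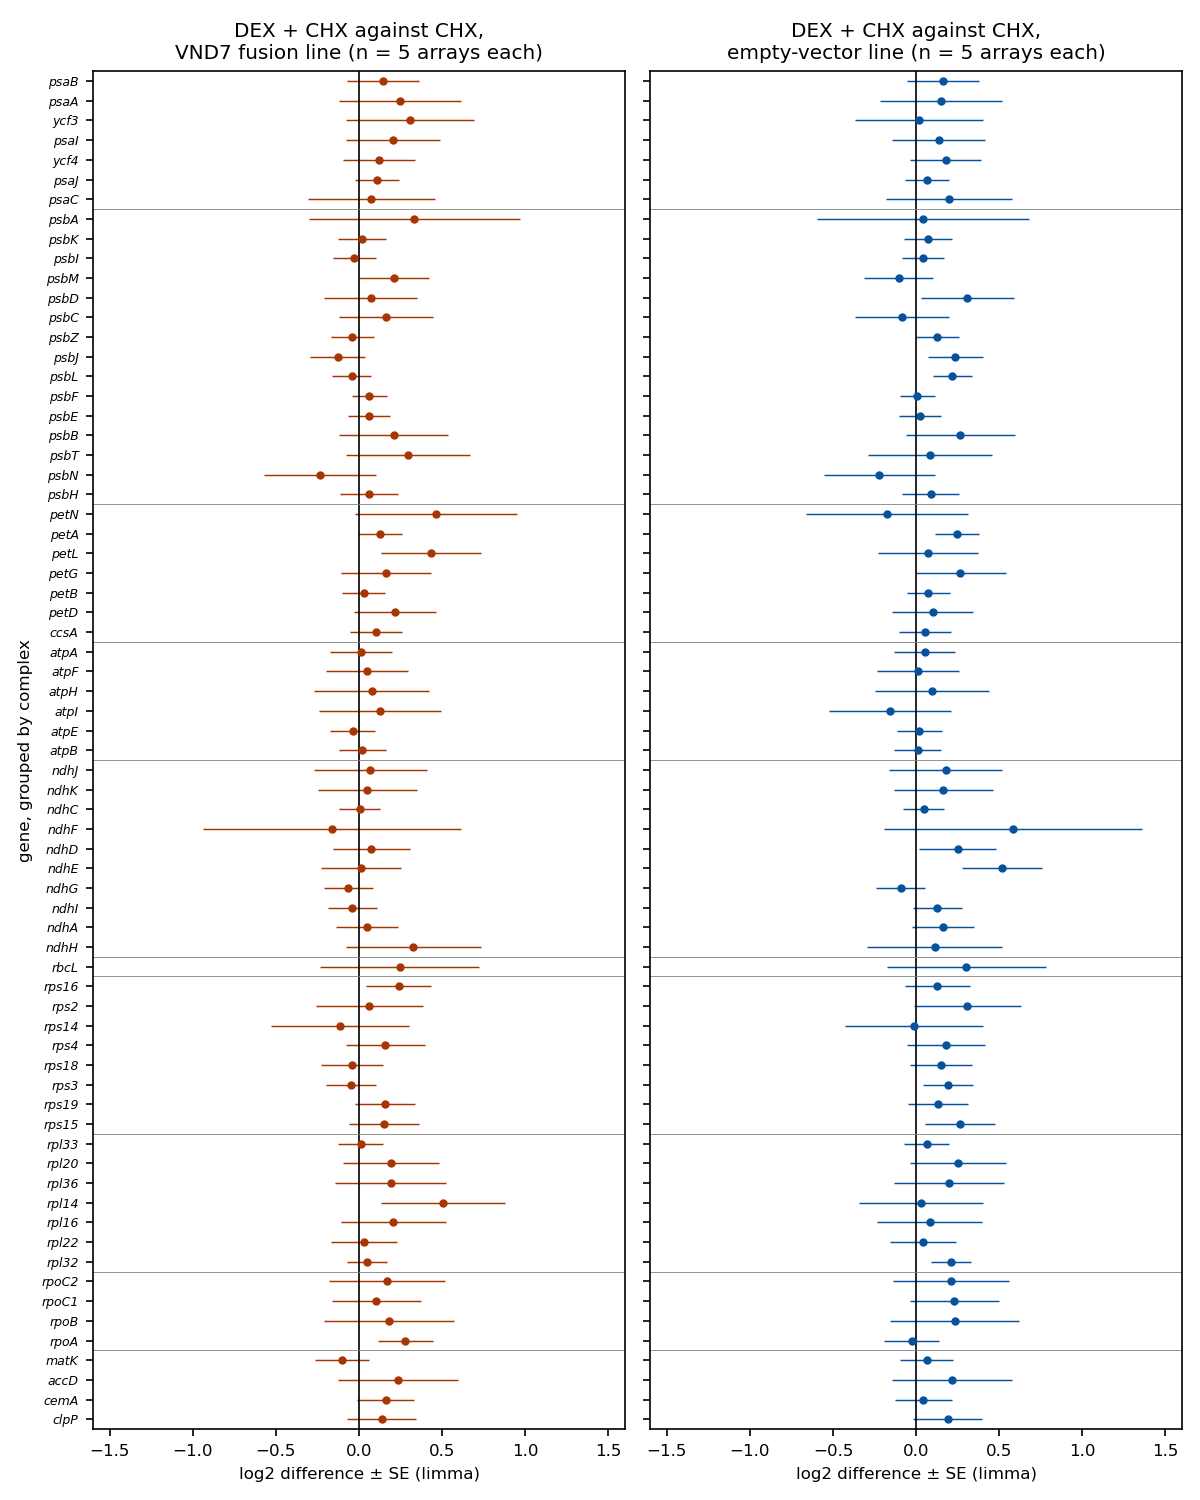
Difference between DEX with CHX and CHX alone for each of the 69 plastid genes (log2, with limma's standard error, 5 arrays per group), in the VND7 line on the left and the empty-vector line on the right. Genes are grouped by product between the grey lines, in the order photosystem I, photosystem II, cytochrome b6f, ATP synthase, NDH, Rubisco, small and large ribosomal subunit, RNA polymerase and metabolism. All points in both panels lie within 1.5-fold, ndhF in the right panel just inside it, and ndhF has the widest bars.

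The gene rpl14 was the 1 member whose call depended on the replicate number. Its signals in the VND7 line were 613, 759, 519.5, 2051 and 1633 under CHX and 1020, 1182, 949.7, 2172 and 2033 with DEX. Every replicate number was higher with DEX, although the groups overlap because replicates 4 and 5 were high under both treatments. Without the replicate number in the fit the difference was 0.51 ± 0.37 and not called. With the replicate number as a block the standard error was 0.12, and rpl14 rose with an adjusted p of 0.049 (limma). That was 1 of 69 members called higher, where the blocked fit called 0.928% of all probe sets higher. In the empty-vector line rpl14 read 1014, 813, 798, 1790.5 and 2332 under CHX and 1282, 938, 724, 1881 and 1881 with DEX, a difference of 0.03 ± 0.37. The DEX responses of the lines differed by 0.48 ± 0.53, which was not called with the block either (adjusted p = 0.385).

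DEX in the empty-vector line gave no called member (0 of 69, against 0.281% of all probe sets called higher and 0% lower). The members' differences ran from -0.22 (psbN) to 0.58 (ndhF, an NDH subunit), with a median of 0.13 against -0.01 over all probe sets and 61 of 69 positive. Treatments separated without overlap in 0 members (0.822% of all probe sets upwards and 0.224% downwards). One member and 832 probe sets (3.66%) had an unadjusted p under 0.05. With the replicate block those numbers were 8 and 1901 (8.36%), and 0 members were called at the adjusted threshold (0.712% of all probe sets). The member without the block was ndhE, a small membrane subunit of NDH. Its signals were 718, 362, 370.2, 745 and 381 under CHX and 1025, 663, 446, 784 and 703 with DEX, so it was higher with DEX in 5 of 5 replicate numbers while the groups overlap. The difference was 0.52 ± 0.24 (unadjusted p = 0.044, adjusted p = 1, and 0.2 with the replicate block, limma). In the VND7 line the same gene read 995, 490.2, 461, 564 and 609.5 under CHX and 786, 526, 547, 513 and 748 with DEX, a difference of 0.01 ± 0.24.

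The next smallest p in the empty-vector line belonged to petA, which encodes cytochrome f. It read 6405, 5020, 4525, 5779 and 5672 under CHX and 7710.5, 6020, 5443, 7744 and 5796 with DEX, again higher in 5 of 5 replicate numbers with overlapping groups. The difference was 0.25 ± 0.13 (adjusted p = 1, limma). In the VND7 line petA read 6678, 4209, 5609, 5558 and 4466 and 5718, 5906, 5658, 5845 and 5896, a difference of 0.13 ± 0.13. By product, the medians in the empty-vector line were 0.30 for rbcL, 0.22 for RNA polymerase, 0.17 for the small ribosomal subunit, 0.16 for NDH, 0.15 for photosystem I and 0.13 for the metabolic group. They were 0.08 for the large ribosomal subunit and 0.07 for both photosystem II and the cytochrome b6f group, and 0.02 for ATP synthase.

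The responses of both lines did not differ past the threshold for any member (0 of 69, against 0.224% of all probe sets called higher and 0.167% lower, 0.391% in all). At an unadjusted p under 0.05 the members numbered 0 and all probe sets 3.64%. With the replicate block the members numbered 4 and all probe sets 7.55%, and 0 members were called at the adjusted threshold. The median difference of responses was -0.04 (26 of 69 positive, from -0.75 for ndhF to 0.64 for petN, against a median of -0.01 over all probe sets), and it was 0.01 after quantile normalization. The smallest p belonged to psbL and psbJ, neighbours in the psbE cluster of small photosystem II subunits. For psbJ the VND7 line gave 5379.5, 6718, 6609, 6443 and 6053 under CHX and 5174, 5385, 6803, 5583 and 6084 with DEX, and the empty-vector line 4473, 7474, 6282, 5852 and 5542 and 7054, 8064, 6895, 8043 and 4957. The difference of responses was -0.37 ± 0.24. All 4 groups of psbJ overlap. For psbL the VND7 line gave 2515, 2435, 2461, 2686 and 2589.5 and 2139.7, 2528, 2481, 2588 and 2795, and the empty-vector line 2118, 1985, 2096, 3164 and 2727 and 2711, 2378, 2519, 3046 and 3293. The difference of responses was -0.26 ± 0.17, also with overlapping groups.

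Between the lines, 0 of 69 members were called under CHX alone, where 0.0264% of all probe sets were called higher in the VND7 line and 0% lower. With DEX 0 of 69 were called, where 0.862% of all probe sets were called higher and 0.457% lower, 1.32% in all. At an unadjusted p under 0.05 the members numbered 0 in both (2.67% and 5.81% of all probe sets). With the replicate block they numbered 3 under CHX alone and 2 with DEX (7.19% and 11.7% of all probe sets), and 0 were called at the adjusted threshold. The lines separated without overlap in 0 members, with 0.299% of all probe sets upwards and 0.233% downwards under CHX alone and 1.29% and 0.901% with DEX. Under CHX alone the median was -0.03 (20 of 69 positive, all probe sets 0.01) and with DEX -0.07 (14 of 69 positive, all probe sets -0.01). The widest difference under CHX alone was that of ndhF, at the bottom of the scale. It read 53.4, 19.7, 11, 4.1 and 1.5 in the empty-vector line and 57.5, 13.4, 13.3, 15.2 and 22.9 in the VND7 line, a difference of 1.15 ± 0.77, which became 0.14 when 52.9 signal units were added to every value before the logarithm. With DEX the same gene read 59.8, 11.2, 19.2, 7.7 and 5.5 in the empty-vector line and 27.9, 23.1, 19, 11.6 and 15.5 in the VND7 line. Signals of a few units carry no reliable ratio. With DEX, psbJ (-0.26 ± 0.17) and psbL (-0.15 ± 0.12) had the smallest p.

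Pairs of arrays with the same replicate number showed how the members moved together. In the VND7 line the median DEX difference over members was -0.28 for replicate 1 (13 of 69 higher), 0.33 for replicate 2 (58), 0.21 for replicate 3 (49), 0.04 for replicate 4 (40) and 0.17 for replicate 5 (55). In the empty-vector line it was 0.25 (61), 0.23 (60), -0.09 (25), 0.31 (62) and -0.13 (20). The sign of the shared shift thus differed between replicate numbers in both lines. Between the lines with DEX, the median ran from -0.42 for replicate 1, where 0 of 69 members were higher in the VND7 line, to 0.20 for replicate 3. Under CHX alone it stayed between -0.11 and 0.13. Without the VND7-line DEX array of replicate 1, the median DEX difference in that line was 0.10 and the median line difference with DEX was -0.06, with 0 members called in each. That fit kept the other replicate-1 arrays, so it does not show the differences without that pair. In the pairs of replicates 2 to 5 alone, the DEX medians in the VND7 line were 0.04 to 0.33. Between the lines with DEX those pairs gave -0.19 to 0.20.

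Plastid transcript levels differed between replicate numbers. Between lines or treatments no member was called without the block, and with it rpl14 alone was called, for DEX in the VND7 line. The fit with the block is the like one to set beside the replicate numbers, because their test also holds the group constant. Each number occurs once in all 4 groups, so the numbers can be compared with the group held constant. Any difference among the 5 numbers was called for 51 of 69 members, against 44.5% of all probe sets. The gap between the highest and lowest number mean had a median of 0.83 log2 (1.78-fold) over members and 0.69 log2 (1.61-fold) over all probe sets. Of 11 members with a mean signal above 10000, 3 were called, with a median gap of 0.33 log2. Of the 58 at or below it 48 were called, with a median gap of 0.92 log2. The bright members include psaJ, psbM and atpB, described below as not called in either split. The part of brightness in this was not tested. The splits described next, replicate 1 against the other 4 and replicates 2 and 3 against 4 and 5, were taken from earlier results of these data. What the numbers stand for is not stated in the labels.

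Replicate 1 was higher than the mean of the others in 33 members and lower in 6, where 13.7% of all probe sets were called higher and 18% lower. The median was 0.27 over members and -0.03 over all probe sets. Replicates 2 and 3 were lower than 4 and 5 in 36 members and higher in 6, where 16.3% of all probe sets were called lower and 21.3% higher. That median was -0.28 over members and 0.01 over all probe sets. When arrays were scaled to the trimmed mean instead of the median, the latter contrast moved by -0.11 over all probe sets, and the members' median was -0.39 against -0.10 over all probe sets. Of the 6 members called higher in it, ndhK and psbJ lost the call under that scaling and under quantile normalization. Under quantile normalization atpE also lost its call in replicate 1 (0.18, adjusted p = 0.0689). When each array in turn was left out, 27 of the 33 higher calls in replicate 1 stood in all 20 fits (psbD, psbZ, psaA, atpE, petL and psbB did not), and 32 of the 36 lower calls in replicates 2 and 3 (psbK, atpI, rps4 and petB did not). Of the 6 higher calls in replicates 2 and 3, those of ndhK and psbJ were lost in some of these fits.

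The groups differed in how strongly they showed the replicate-1 difference. The members' median for replicate 1 against the others was 0.26 in the empty vector with CHX, 0.44 in the empty vector with DEX, 0.43 in the VND7 line with CHX and 0.01 in the VND7 line with DEX. Leaving out that last replicate-1 array gave 38 members higher and 2 lower, with a median of 0.35. The contrast of replicates 2 and 3 with 4 and 5 gave medians from -0.33 to -0.22 in the 4 groups, with 51 to 56 of 69 members lower in each.

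**Figure D2:**
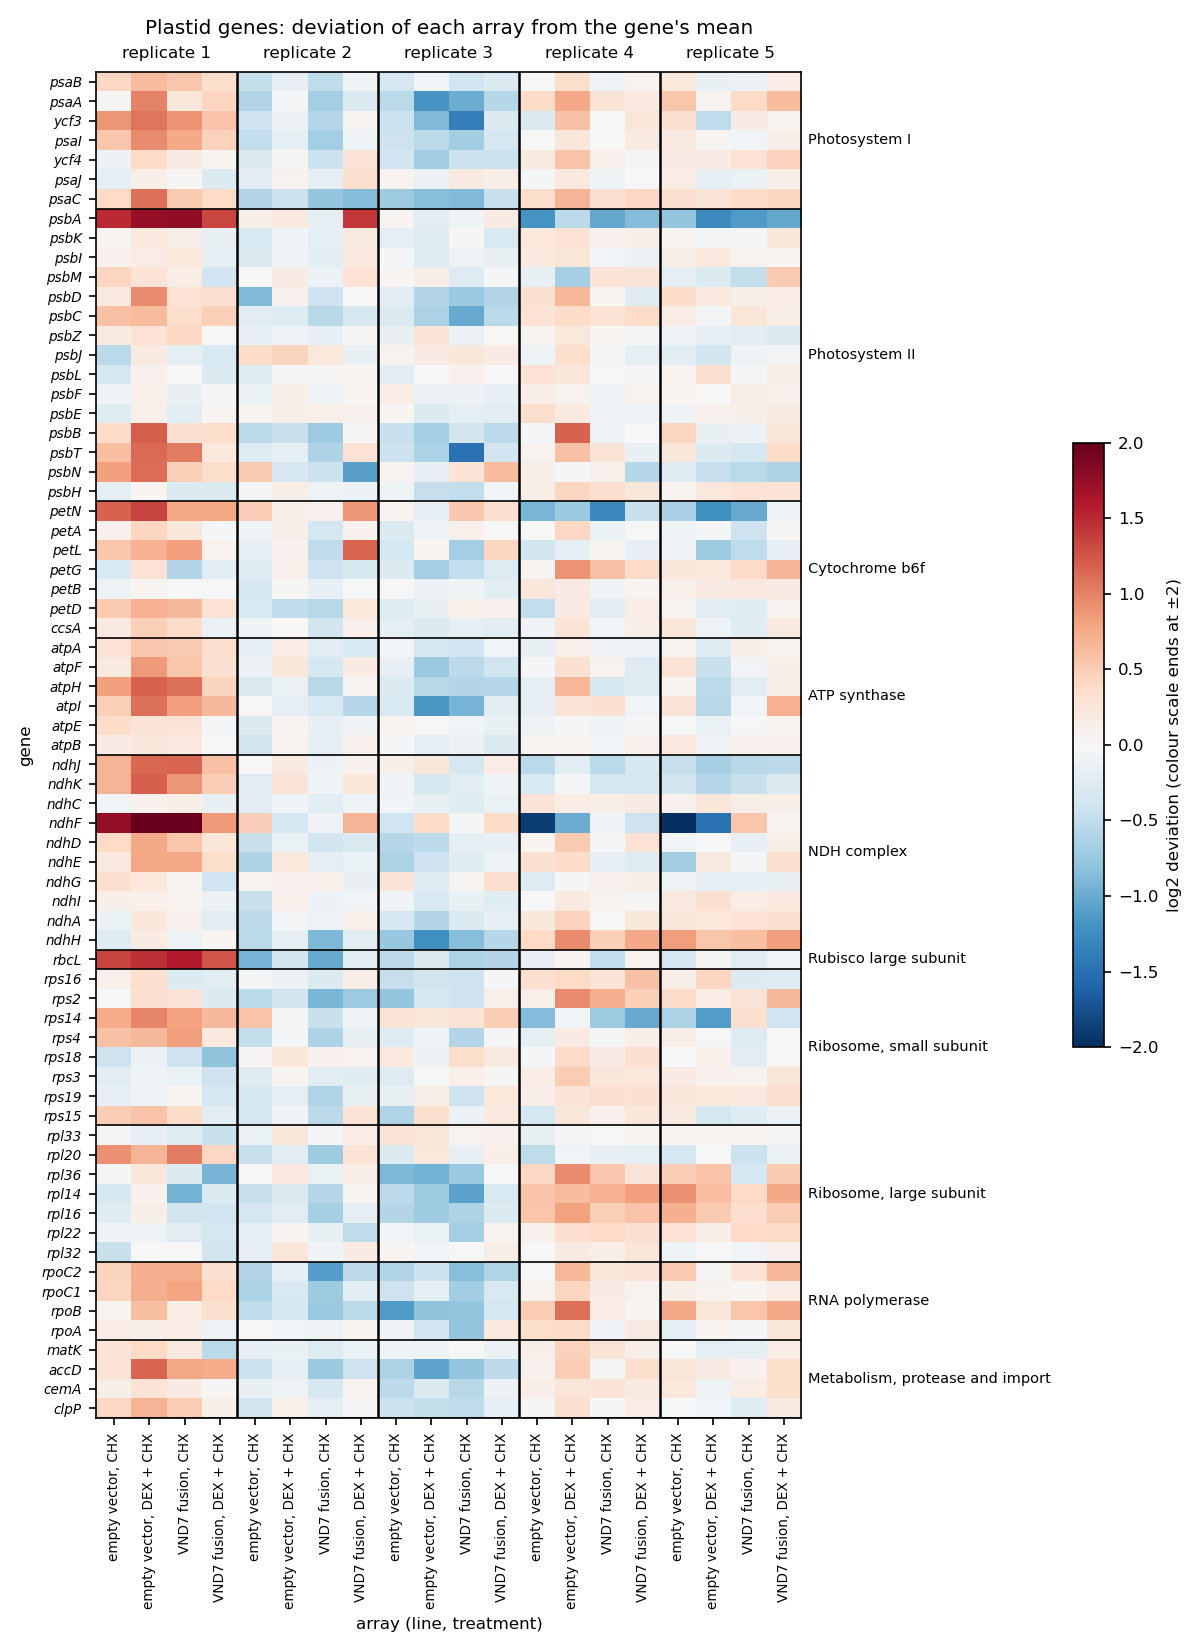
Log2 deviation of each of the 20 arrays (columns, sorted by replicate number and then by line and treatment) from each gene's mean over all arrays, for 69 plastid genes (rows, grouped by product). Red is above and blue below the gene's mean, with the colour scale ending at ±2. In replicate 1, 3 columns are mostly red and the VND7-line DEX column less so. Counts given here are against each gene's mean in the same group of 5 arrays, not the plotted mean. By that count, members above the mean number 48 to 60 of 69 in the 3 columns and 36 of 69 in the VND7-line DEX column. In replicates 2 and 3 they number 9 to 21, except 32 in the VND7-line DEX column of replicate 2. In the plot, psbA, petN, rps14, ndhJ and ndhK are mostly blue in replicates 4 and 5.

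Photosystem I genes followed the common pattern. Of 7 members 6 were called lower in replicates 2 and 3 than in 4 and 5 (median -0.53) and 5 higher in replicate 1 (median 0.61). The psaC gene encodes the iron-sulphur protein at the electron-accepting end of photosystem I. Values by replicate number are given for the empty vector with CHX, the empty vector with DEX, the VND7 line with CHX and the VND7 line with DEX, in that order. For psaC, replicate 1 gave 1625, 2508, 1664 and 1581, replicate 2 725, 829, 646 and 618 and replicate 3 688, 642, 579.5 and 841. Replicate 4 gave 1515, 1914, 1543 and 1593, and replicate 5 1505, 1453, 1558 and 1596. The 8 arrays of replicates 2 and 3 lay below the 8 of replicates 4 and 5 without overlap. Relative to the array medians they were 2.12-fold lower (log2 difference -1.09 ± 0.09, adjusted p = 9.97e-09, limma). Replicate 1 was above the mean of the others by 0.75 ± 0.10 (adjusted p = 1.12e-05).

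The reaction-centre genes psaA and psaB, read from the same transcript, were lower in replicates 2 and 3 by -1.003 ± 0.13 and -0.34 ± 0.09. The other called members there were psaI, a small subunit (-0.51 ± 0.08), and the assembly factors ycf3 (-0.58 ± 0.16) and ycf4 (-0.53 ± 0.10). The exception was psaJ, a small membrane subunit. It gave 12449, 14949.7, 13579.9 and 11492 in replicate 1, 10876, 13598, 11249 and 16561 in replicate 2 and 13697, 12294, 13919 and 14544 in replicate 3. Replicate 4 gave 13243, 15716, 13561 and 13883 and replicate 5 15495, 12355, 12728 and 15039. All 5 replicate numbers overlap in psaJ, and neither contrast was called (0.03 ± 0.10 and -0.10 ± 0.11).

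Photosystem II genes were divided. Of 15 members 6 were lower and 2 higher in replicates 2 and 3 (median -0.17), and 7 were higher in replicate 1 (median 0.15). The psbA gene encodes the D1 protein of the reaction centre, which is damaged by light and replaced continually. It gave 16219, 18343, 18491 and 14238 in replicate 1, 5555, 6001, 4513 and 14047 in replicate 2 and 5477, 4639, 4727 and 5998 in replicate 3. Replicate 4 gave 2446, 3876, 2868 and 3088 and replicate 5 3308, 2353, 2597 and 2723. Replicate 1 had the highest signal in every group, with the VND7-line DEX array of replicate 2 close to it at 14047 signal units, well above the other 3 arrays of its number. Relative to its array's median that replicate-2 value was the higher of both. Mean signals were 16820 ± 2012 (SD, n = 4 arrays), 7529 ± 4390, 5210 ± 646, 3070 ± 600 and 2745 ± 406 for numbers 1 to 5.

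For psbA, replicate 1 was 3.95-fold above the others (log2 difference 1.98 ± 0.18, adjusted p = 8.39e-08, limma). The pair 2 and 3 lay 2.23-fold above 4 and 5 (1.15 ± 0.16, adjusted p = 7.23e-06), without overlap. Without the high replicate-2 array the latter difference was 0.98. Its partner psbD went the other way, with -0.62 ± 0.13 for replicates 2 and 3, as did the inner antenna genes psbC (-0.70 ± 0.07) and psbB (-0.65 ± 0.16). The small subunits psbT (-0.55 ± 0.17), psbH (-0.40 ± 0.08) and psbK (-0.26 ± 0.09) were also called lower. The other member called higher was psbJ at 0.27 ± 0.10 (adjusted p = 0.0317), whose call was lost in 8 of the 20 fits that each left out an array.

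Among photosystem II genes called in neither contrast was psbM, a small subunit where the partners of the dimer meet. It gave 30232, 25745, 23242 and 16665 in replicate 1, 19703, 22616, 18394 and 24893 in replicate 2 and 20993, 22704, 16251 and 20252 in replicate 3. Replicate 4 gave 19365, 13658, 27341 and 25904 and replicate 5 19433, 18255, 15714 and 30727. Replicate 4 alone spanned 13658 to 27341, and all numbers overlap. The haem-binding subunits psbE and psbF, and psbI and psbL, were called in neither contrast.

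**Figure D3:**
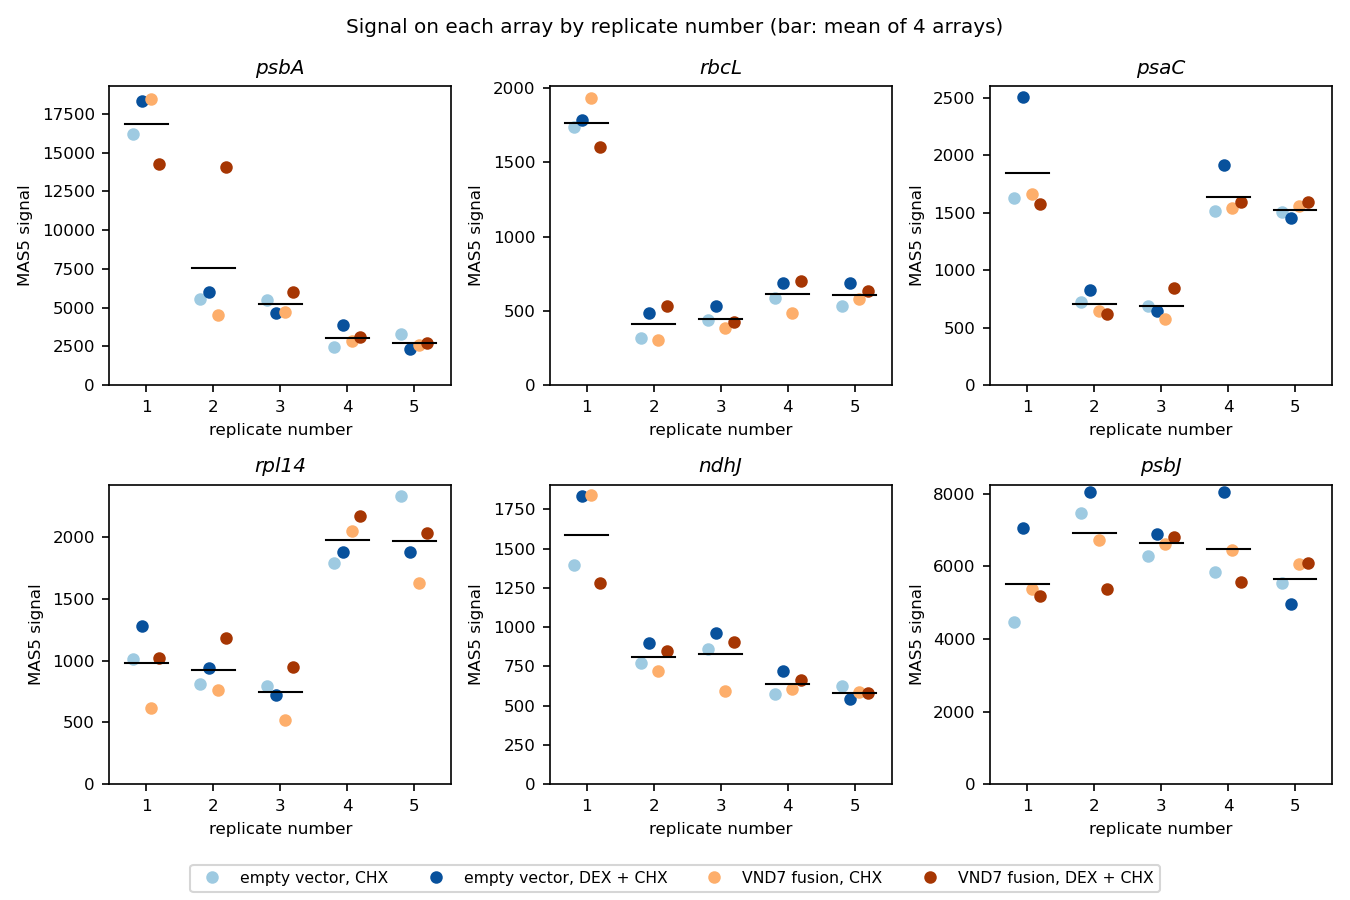
MAS5 signal (vertical axes, linear and starting at 0) of 6 plastid genes on all 20 arrays by replicate number, coloured by line and treatment, with a bar at the mean of the 4 arrays of each number. The psbA, rbcL and ndhJ panels are highest in replicate 1, psaC is low in replicates 2 and 3, rpl14 is high in replicates 4 and 5, and psbJ differs least between numbers.

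The cytochrome b6f group held opposite members. The petN gene, for a small subunit, was higher in replicates 2 and 3 (1.08 ± 0.16, adjusted p = 1.74e-05) and in replicate 1 (1.27 ± 0.18). Its probe set was dim in replicates 4 and 5, at 57.9 to 125.2 signal units, below the median of each of those arrays. The petG gene, for another small subunit, was lower in replicates 2 and 3 (-0.75 ± 0.12, adjusted p = 3.70e-05) and not called for replicate 1. The petB gene encodes cytochrome b6. It gave 18466, 19194, 18399 and 19204 in replicate 1, 13865, 18201, 15616 and 17882 in replicate 2 and 18122, 17119.7, 16122 and 15828 in replicate 3. Replicate 4 gave 22131, 21375, 18701 and 19884 and replicate 5 20786, 21687, 22096 and 21145. Replicates 2 and 3 were lower by -0.23 ± 0.08 (adjusted p = 0.0306), a call lost in some fits without 1 array. The signals of both sets did not overlap, but the values relative to the array medians did. In all, 1 of 7 members was higher and 2 lower in replicates 2 and 3 (median -0.08), and 3 were higher in replicate 1 (median 0.28), petL (0.67 ± 0.20) and petD (0.67 ± 0.16) among them. The petD probe set was dim, at 64.9 to 165.4 signal units, below the median of every array.

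ATP synthase genes were mainly high in replicate 1, in 5 of 6 members (median 0.55). The differences were 1.11 ± 0.16 for atpH, 0.95 ± 0.20 for atpI and 0.59 ± 0.14 for atpF, which encode parts of the membrane sector. They were 0.52 ± 0.10 for atpA and 0.27 ± 0.09 for atpE of the catalytic part, and the call of atpE was lost under quantile normalization. The remaining member was atpB, for the catalytic beta subunit. It gave 27478, 27134, 26288 and 24046 in replicate 1, 16840, 22926, 18965 and 23664 in replicate 2 and 21924, 20324, 19447 and 18929 in replicate 3. Replicate 4 gave 24054, 24329.7, 23824 and 25520.2 and replicate 5 27405, 22812, 25631 and 24958. The signals of replicate 1 overlap those of replicate 4, and neither contrast was called (0.19 ± 0.10 for replicate 1). In replicates 2 and 3 atpI alone was called lower (-0.55 ± 0.18), and the median of the 6 was -0.21.

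The rbcL gene encodes the large subunit of Rubisco, the enzyme that fixes carbon dioxide. It gave 1741, 1789, 1934 and 1603 in replicate 1, 318, 483, 304 and 535 in replicate 2 and 437, 533, 383 and 425 in replicate 3. Replicate 4 gave 585, 686, 489 and 701 and replicate 5 531, 687, 582 and 634. The 4 arrays of replicate 1 lay far above all 16 others, at 3.4-fold (log2 difference 1.77 ± 0.10, adjusted p = 4.70e-10, limma), the smallest p of any member. The pair 2 and 3 lay below 4 and 5 by -0.43 ± 0.09 (adjusted p = 0.000912), with overlap. Mean signals were 1767 ± 137 (SD, n = 4) in replicate 1 and 410 ± 116, 445 ± 63.3, 615 ± 98.8 and 609 ± 67 in replicates 2 to 5. RCA, the nuclear-encoded activase of Rubisco, was higher in replicate 1 by 0.28 ± 0.10 (adjusted p = 0.0338). Its difference among all 5 numbers was not called (adjusted p = 0.127, limma's F-test). Of 12 matched nuclear photosynthesis genes 2 were higher and 4 lower in replicate 1.

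NDH genes, whose complex carries electrons around photosystem I, were called among the replicate numbers in 9 of 10 members. Of them 5 were lower and 2 higher in replicates 2 and 3 (median -0.29), and 5 were higher in replicate 1 (median 0.33). The lowest value of any member in that contrast was that of ndhH, a subunit of the stromal arm. It gave 372, 476, 390.3 and 446 in replicate 1, 272, 355, 213 and 354 in replicate 2 and 242, 179.8, 214 and 281 in replicate 3. Replicate 4 gave 565, 826, 626 and 738 and replicate 5 786, 645, 668 and 761. The pair 2 and 3 lay 2.52-fold below 4 and 5 without overlap (-1.33 ± 0.10, adjusted p = 3.53e-09, limma), and replicate 1 did not differ from the mean of the others past the threshold (-0.05 ± 0.12).

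The ndhJ gene, for another stromal subunit, went the opposite way. It gave 1393, 1836, 1840.4 and 1281 in replicate 1, 773, 897, 719 and 849.5 in replicate 2 and 861, 960.5, 594 and 905 in replicate 3. Replicate 4 gave 574, 718, 604 and 665 and replicate 5 622, 545, 587 and 579. Replicate 1 lay above every other array, at 2.17-fold the mean of the others (1.12 ± 0.10, adjusted p = 9.90e-08), and replicates 2 and 3 lay above 4 and 5 by 0.52 ± 0.09 (adjusted p = 0.000114). Its neighbours in the same transcript split: ndhK was higher too (0.27 ± 0.09), and ndhC was lower (-0.30 ± 0.06). The ndhK call was lost under trimmed-mean scaling (0.16), under quantile normalization (0.23) and in 7 of the 20 fits that each left out an array. For ndhI, a subunit with iron-sulphur centres, replicate 1 gave 18962, 17763, 17199 and 15725, replicate 2 11314, 16919, 14279.7 and 15341 and replicate 3 14924, 13307, 13598 and 13692. Replicate 4 gave 16656, 19291, 18439 and 17294 and replicate 5 19653, 21268, 18922 and 19198. Replicates 2 and 3 were below 4 and 5 by -0.31 ± 0.08 (adjusted p = 0.00652), with overlap.

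The largest replicate-1 difference of any member was that of ndhF, 2.05 ± 0.48 (adjusted p = 0.00237), at 27.9 to 59.8 signal units in replicate 1 and 1.5 to 23.1 in the others. The arrays did not overlap, but the fold depends on values near the floor, and the difference was 0.62 with 52.9 signal units added. The ndhE gene was also higher in replicate 1 (0.65 ± 0.14, adjusted p = 0.00103).

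Some ribosomal protein genes were low in replicate 1, where no photosynthesis gene was called lower. All 6 members called lower in replicate 1 encode ribosomal proteins (rpl14, rpl16, rpl32, rpl33, rps3 and rps18), although 4 of these calls were each lost without at least 1 array. Of 7 large-subunit genes 4 were lower in replicate 1 and 1 higher (rpl20, 0.95 ± 0.13), with a median of -0.28. The same group had 4 members lower in replicates 2 and 3 (median -0.49). Of 8 small-subunit genes 2 were higher and 2 lower in replicate 1 (median 0.04), and 1 was higher and 5 lower in replicates 2 and 3 (median -0.29).

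For rpl14, replicate 1 gave 1014, 1282, 613 and 1020, replicate 2 813, 938, 759 and 1182 and replicate 3 798, 724, 519.5 and 949.7. Replicate 4 gave 1790.5, 1881, 2051 and 2172 and replicate 5 2332, 1881, 1633 and 2033. Replicates 4 and 5 lay above all arrays of replicates 1, 2 and 3. The difference was -1.16 ± 0.10 for replicates 2 and 3 (adjusted p = 9.09e-09) and -0.45 ± 0.11 for replicate 1 (adjusted p = 0.00281). Its neighbour rpl16, also a large-subunit gene, gave 1357, 1668, 1175 and 1197 in replicate 1, 1133, 1254, 912 and 1294 in replicate 2 and 983, 928, 908 and 1237 in replicate 3. Replicate 4 gave 2281, 2711, 2257 and 2322 and replicate 5 2607, 2289, 2009 and 2188. It had the same order of numbers, with -1.01 ± 0.08 for replicates 2 and 3 (adjusted p = 3.52e-09) and -0.28 ± 0.09 for replicate 1 (adjusted p = 0.0191).

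In the same cluster, rps3, a small-subunit gene, gave 6442, 6683, 6437 and 5510.2 in replicate 1, 5564, 7085, 5736 and 5769 in replicate 2 and 5722, 6977, 6943 and 7057 in replicate 3. Replicate 4 gave 7950.4, 10229, 8875 and 8404 and replicate 5 8225, 7833, 7725 and 8489. Lower values held in replicates 2 and 3, by -0.31 ± 0.07 (adjusted p = 0.00189) and replicate 1 by -0.26 ± 0.08 (adjusted p = 0.0163). The rpl33 gene, outside this cluster, gave 13187, 11472, 10565 and 9729 in replicate 1, 10971, 14344, 11785 and 13679 in replicate 2 and 14964, 14965, 12282 and 13382 in replicate 3. Replicate 4 gave 11664, 12650, 13629 and 13549 and replicate 5 13622, 13863, 13678 and 13203. It was called lower in replicate 1 (-0.28 ± 0.09, adjusted p = 0.0185) and was not called in the other contrast (0.11 ± 0.08). The gene beside it, rps18, had the lowest replicate-1 difference of any member (-0.55 ± 0.10, adjusted p = 0.000255).

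The plastid's own RNA polymerase genes were low in replicates 2 and 3, in 3 of 4 members with a median of -0.75. The rpoB gene encodes the beta subunit. It gave 174, 241, 175 and 205 in replicate 1, 104, 122, 89 and 105 in replicate 2 and 69.5, 90.1, 84.5 and 122 in replicate 3. Replicate 4 gave 226, 346, 186 and 167 and replicate 5 279.6, 195, 242 and 272. Relative to the array medians, replicates 2 and 3 were 2.24-fold below 4 and 5 without overlap (-1.16 ± 0.15, adjusted p = 2.60e-06). The genes that follow rpoB in its transcript, rpoC1 (-0.57 ± 0.08) and rpoC2 (-0.93 ± 0.12), were also lower without overlap, and both were higher in replicate 1 (0.73 ± 0.09 and 0.69 ± 0.13). The rpoA gene, which lies at the end of the ribosomal cluster, was called in neither contrast (-0.26 ± 0.10 and 0.10 ± 0.11). Of 10 genes listed as read mainly by the bacterial-type polymerase, 8 were lower and 1 higher in replicates 2 and 3, and 7 were higher in replicate 1. Of 7 measured genes listed for the nuclear-encoded polymerases, 4 were lower in replicates 2 and 3, and 3 were higher and 2 lower in replicate 1.

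In the remaining group, accD, which encodes a subunit of acetyl-CoA carboxylase in fatty acid synthesis, was lower in replicates 2 and 3 (-0.82 ± 0.10) and higher in replicate 1 (0.93 ± 0.11). The clpP gene, for the catalytic subunit of the Clp protease, gave 10312, 11845, 10389 and 8225 in replicate 1, 5336, 7590.2, 6103 and 6960.2 in replicate 2 and 5251, 5228, 4748 and 6436 in replicate 3. Replicate 4 gave 7565, 9372, 7681 and 8407 and replicate 5 7561, 7362, 6488 and 8392. Replicate 3 was the lowest number in all 4 groups. The differences were -0.30 ± 0.09 for replicates 2 and 3 (adjusted p = 0.00994) and 0.54 ± 0.10 for replicate 1 (adjusted p = 0.00027). The envelope protein gene cemA was lower in replicates 2 and 3 (-0.42 ± 0.08), and the splicing maturase gene matK was called in neither contrast.

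Over all members, both contrasts together gave 17 genes lower in replicates 2 and 3 and higher in replicate 1, 16 lower in replicates 2 and 3 alone, 11 higher in replicate 1 alone and 5 higher in both (psbA, petN, rps14, ndhJ and ndhK). A further 3 were lower in both (rpl14, rpl16 and rps3), 3 were lower in replicate 1 alone, psbJ was higher in replicates 2 and 3 alone, and 13 were called in neither. Replicate 1 was the highest number in all 4 groups for 16 members (23.2%, against 5.42% of all probe sets). Replicate 3 was the lowest in all 4 groups for 8 members (11.6%, against 0.985%). Arrays of replicates 2 and 3 separated from those of 4 and 5 without overlap for 13 members downwards and psbA upwards, where 4.73% and 7.76% of all probe sets did so. Replicate 1 separated from the rest for 10 members upwards and 0 downwards, where 3.05% and 3.52% did so.

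**Figure D4:**
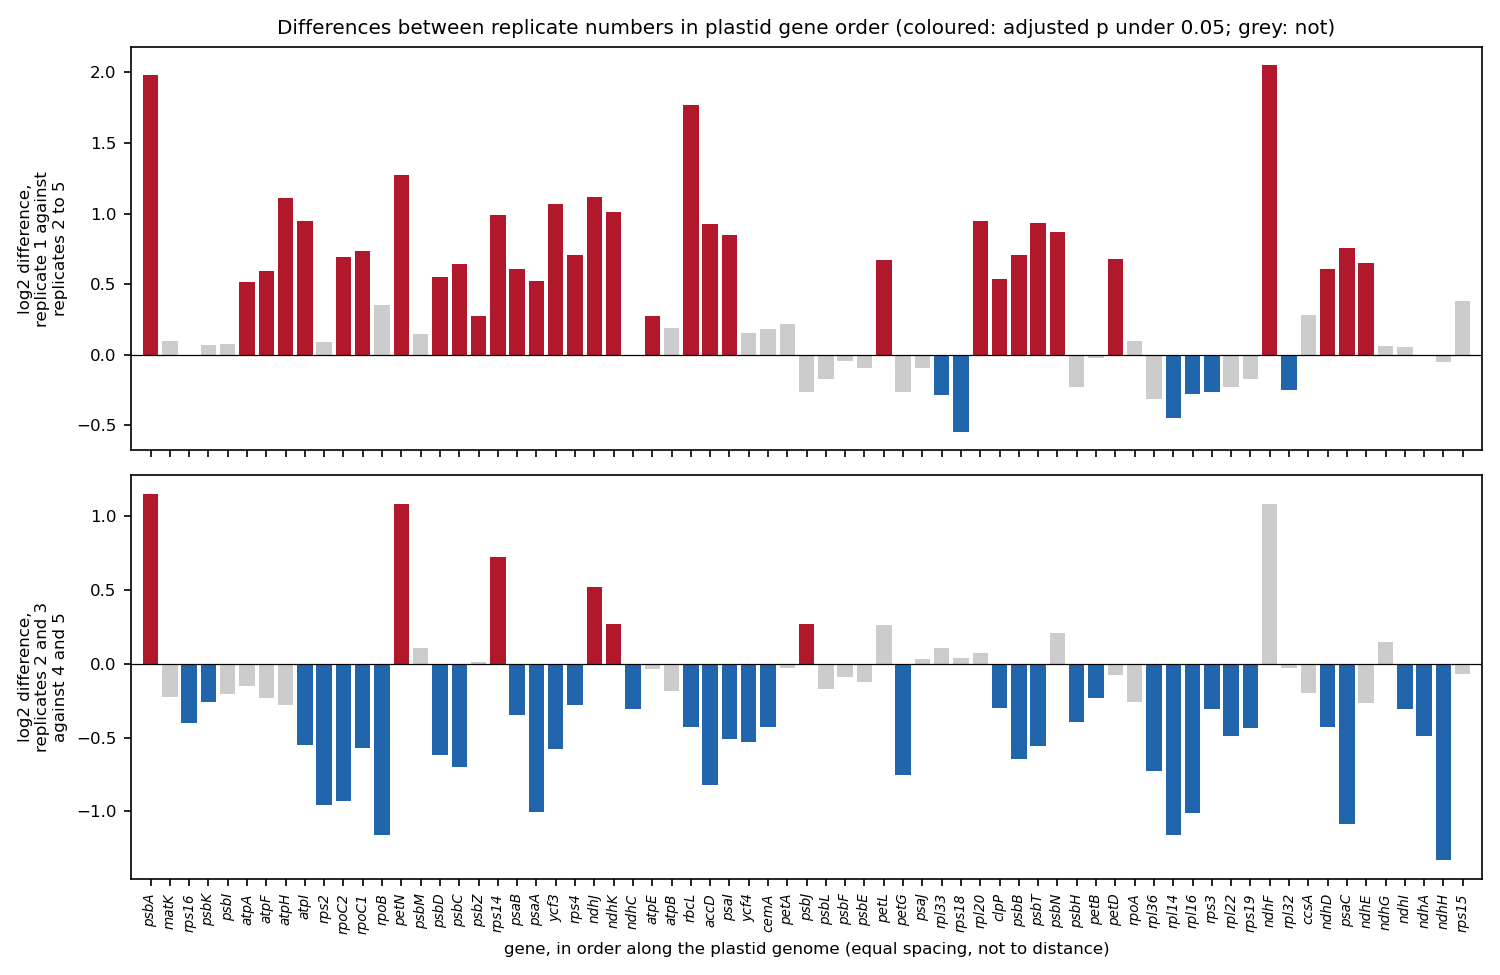
Log2 difference between replicate numbers for 69 plastid genes in their order along the plastid genome (equal spacing, not distance), replicate 1 against 2 to 5 above and replicates 2 and 3 against 4 and 5 below. Red and blue bars are called higher and lower (limma's adjusted p under 0.05) and grey bars are not called. The blue run in the upper panel lies over the ribosomal cluster, and red and blue bars stand side by side at ndhJ, ndhK and ndhC in the lower panel.

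Neighbouring genes tended to have nearer values than genes in general. Over 68 pairs of neighbours the median gap was 0.30 log2 in the replicate-1 difference, against 0.53 over all 2346 pairs of members, and 0.35 against 0.42 for replicates 2 and 3 against 4 and 5. The ribosomal cluster from rps19 to rpoA had 6 of 7 measured members lower in replicates 2 and 3 and 3 lower in replicate 1. The cluster from rps2 to atpA had 2 of 5 lower in replicates 2 and 3 and 4 higher in replicate 1. The cluster from psbB to petD, with psbN on the opposite strand, had 4 of 6 lower in replicates 2 and 3 and 4 higher in replicate 1. The psbE cluster had 1 of 4 called, psbJ. Opposite calls within 1 transcript occurred in the psaA, psaB and rps14 cluster, where rps14 was higher in replicates 2 and 3 (0.72 ± 0.21) and both others were lower, and in the ndhC cluster. The rps14 probe set was dim, at 30.3 to 125.3 signal units, below the median of every array.

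Nuclear genes for plastid functions did not share 1 direction. Of 61 listed nuclear photosynthesis genes 12 could be matched to a probe set, and 6 of these differed among the numbers. In replicates 2 and 3 against 4 and 5, 3 were higher and 1 lower (median 0.09), and in replicate 1, 2 were higher and 4 lower (median -0.11). The antenna gene LHCB4.3 was higher in replicates 2 and 3 by 2.15 ± 0.10 (adjusted p = 1.60e-12, means 1612 and 1488 against 425 and 330) and LHCB4.2 by 0.90 ± 0.09. The NDH subunit genes NdhL (-0.68 ± 0.14) and NdhN (-0.63 ± 0.12) were lower in replicate 1. PORB, an enzyme of chlorophyll synthesis and the 1 of 8 genes of its list that could be matched, was lower in replicates 2 and 3 by -1.47 ± 0.07 (adjusted p = 5.21e-12). None of these 13 genes was called between lines or treatments.

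Of 22 listed nuclear genes that drive plastid transcription 1 could be matched to a probe set, AT5G15700, a phage-type polymerase of mitochondria and plastids, which was lower in replicates 2 and 3 (-0.34, adjusted p = 0.00612). Of 24 listed RNA-processing genes 3 could be matched and 2 were lower in replicates 2 and 3, AT2G18940 (-0.72 ± 0.16) and AT5G42310 (-0.25 ± 0.07). The summed signal of 13 green-tissue genes lay between 102600 and 124600 in replicate 1 and between 88800 and 137300 in the others. That of both matched root markers lay between 124 and 159 in replicate 1 and between 40.3 and 127 in the others. Each root marker thus read below the median of its array (159.7 to 186 signal units). EXPA18 was higher in replicate 1 (0.65 ± 0.20, adjusted p = 0.015). The part of tissue composition in the differences between numbers was not tested.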

How the data were processed

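Biotin-labelled cRNA from 10 µg of RNA per sample was hybridised to 1-colour Affymetrix arrays, 1 for each of 20 samples in 4 groups of 5. The authors computed signals with MAS5 (version not given), per the submitters' processing notes. What they deposited are natural logs of each signal divided by its array's median, as read from the values: every column had a median of 0, and 100% of the values checked per array (13798 to 14327, under 3000 steps) were whole multiples of a 0.1-unit step within 0.02 of a step. No detection calls were used, and the number of arrays limits the precision. Probe sets were paired with genes through a table of the platform's annotation and RefSeq (TAIR10.1, names and gene order alone).

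Groups, and replicate numbers with group as a covariate, were compared with limma 3.58.1 in R 4.3.3 (variance trend, Benjamini-Hochberg over 22746 probe sets, threshold 0.05), and every adjusted p is limma's. The code was tested on simulated data. The members, the lists and the replicate splits were chosen with earlier results of these data known. Values on every array are given for 23 members: the one with the highest mean signal in each product group, and those with the largest called differences or smallest p in each contrast. Other genes are named for their call or direction after their values were seen. Deviations from group means correlated in all 30 same-number pairs of arrays (r = 0.558 to 0.835, 11367 probe sets above the median), so the numbers pair the samples and the replicate block was an alternative fit. Other alternatives were quantile or trimmed-mean scaling (2% off each end), a pseudocount, a filter leaving out 40% of probe sets, no variance trend, and leaving out arrays, numbers or groups.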

Additional observations from a re-analysis of the deposited data

Results flagged for a closer look

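Single arrays stood far from the other 4 of their group in 7 of 96 groups examined (the 23 members described array by array and the members' summary level, in 4 groups each), where chance gives about 1 in 20. The members described array by array include those with the largest differences between replicate numbers, so this count cannot be read against that share. In 4 of them the array was the high replicate 1: rbcL at 1788.6 in the empty vector with DEX (others 482.7 to 687), petL at 2254.6 in the empty vector with CHX (others 1095.3 to 1405.3), ndhE at 994.9 in the VND7 line with CHX (others 461.2 to 609.5) and ndhJ at 1840.4 in the same group (others 587.2 to 718.8). In the VND7 line with DEX, rpl33 read 9728.7 on replicate 1 (others 13202.8 to 13678.6) and atpB read 18928.7 on replicate 3 (others 23664.3 to 25520.2). In the VND7 line with CHX, rpoA read 3616.1 on replicate 3 (others 5995.2 to 7577.1).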

How the results depend on the processing

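In the 5 comparisons of lines and treatments the count of called members stayed at 0 in each direction under quantile and trimmed-mean scaling, the pseudocount (52.9 signal units), the filter on dim probe sets, the fit without a variance trend and every fit that left out an array or a number. With the replicate block, 1 member (rpl14) was called higher with DEX in the VND7 line, and the block changed no other call there. The other settings were applied to the fit without the block, so the rpl14 call was not checked under them. Leaving out arrays or numbers moved the members' median from 0.02 to 0.21 for DEX in the VND7 line, 0.04 to 0.22 in the empty-vector line, -0.11 to 0.08 for their difference, -0.14 to 0.04 for the lines under CHX and -0.17 to 0.04 with DEX. For replicates 2 and 3 against 4 and 5, the members' median was -0.41 with quantile normalization, -0.39 with the trimmed mean and -0.38 with the pseudocount, against -0.28. Members higher numbered 3 without the empty-vector CHX group, against 6. Members lower in replicate 1 numbered 2 without the VND7-line DEX group and 2 without its replicate 1, against 6. Leaving out 1 array gave 4 to 7 higher and 33 to 38 lower for replicates 2 and 3, 28 to 38 higher and 2 to 8 lower for replicate 1, and 47 to 54 called among all numbers. The causes were not tested. The filter on dim probe sets dropped rps14, petD and ndhF. Each locus had 1 probe set, so averaging probe sets of a locus gave identical values.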

Other observations

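Among the 8 probe sets paired with both copies of a duplicated plastid gene, 3 were called in 1 of both replicate contrasts. The ycf1 probe set, for a large plastid protein, was lower in replicates 2 and 3 than in 4 and 5 (-0.72 ± 0.10, limma's adjusted p = 5.40e-06, mean signals 1699 and 1601 against 3127 and 2742). The small-subunit ribosomal genes rps7 (0.76 ± 0.11, adjusted p = 2.05e-05) and rps12 (0.83 ± 0.13, adjusted p = 5.93e-05 on 1 probe set and 0.30 ± 0.14, adjusted p = 0.111, on the other) were higher or positive in replicate 1. Those of rpl2, rpl23, ycf2 and ndhB were called in neither contrast.

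Of 16 mitochondrial genes matched to probe sets by symbol, where the plastid members were matched by gene ID, 9 differed among the replicate numbers. In replicate 1, 10 were higher and 0 lower, with a median of 0.78 against 0.27 for the plastid genes. Mean signals of the mitochondrial probe sets ran from 14.66 (ccb203) to 506.4 (nad4), with single values down to 1.7 (nad2). Ratios near the floor are unreliable, which limits the comparison of both medians. In replicates 2 and 3 against 4 and 5, 4 were lower and 0 higher, with a median of -0.22. None was called between lines or treatments with limma, at an unadjusted p under 0.05 in 1 gene in the empty-vector line. The test of a difference between organelles was not made.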
